A study of Homo sapiens with 12 samples.

Results

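Interferon-stimulated and RNA-sensing genes were followed across 4 forms of HCT116, an established human colorectal carcinoma line, to see how much RNA of this antiviral program was present without the Argonaute protein AGO2 and after AGO2 was put back. The genes were a list of 43 members given by symbol, of which 34 were among the 15074 genes of the authors' deposited tables. The 9 absent members were IFI27, IFI44, IFITM1, IRF7, MX1, OAS1, OAS2, BST2 and XAF1, and nothing is said of their RNA here. The groups were FH-5xA cells (AGO2 knockout cells carrying FH-tagged AGO2 with the 5xA mutation), FH-WT cells (knockout cells carrying FH-tagged wild-type AGO2), AGO2 knockout cells, and parental cells, with 3 libraries each. Both reconstituted lines therefore share the knockout background. In the 5xA form, alanines replace the residues of a phosphorylation cluster near the end of AGO2, the protein that carries microRNAs to their targets. Per the labels, each well received 500000 cells and was collected 48 h later, and stranded libraries were made after ribosomal RNA depletion.

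Interferons are secreted proteins that cells release on sensing viral nucleic acid. Inside the cell, RIG-I (RIGI), MDA5 (IFIH1) and, in endosomes, TLR3 recognise double-stranded or otherwise foreign RNA, and MAVS passes the signal of RIG-I and MDA5 to IRF3. Secreted interferon binds its receptors and acts through the kinases JAK1 and TYK2 on transcription factors, STAT2 and IRF9 among them, which bind the interferon-stimulated response element (ISRE) in the promoters of many target genes. The products of these targets, the interferon-stimulated genes, block translation, degrade RNA, bind viral particles or strengthen the sensing itself.

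Values are the authors' comparisons of groups and not values per library. The 5 deposited tables compare 3 libraries with 3 others, so each fold change is given with a standard error (SE) derived from the deposited score, and a gene was called at a deposited false discovery rate (FDR) under 0.05. The depth of each library is unknown. The labels call the wells biological triplicates of each line, so the tests cover the spread between wells of 1 line per group and not between independently made lines, and in such bulk RNA fewer expressing cells and less RNA per cell cannot be told apart. AGO2 itself had a fitted level, scaled to library size as CPM, of 267 in FH-5xA, 270 in FH-WT, 161 in knockout and 205 in parental cells. Its RNA fell by 0.35 ± 0.07 on the log2 scale in the knockout in the authors' deposited table, and such a gene total does not show whether the edit removed the protein. Levels were not scaled to gene length and are compared between groups only. Of 10 markers of colorectal epithelium 6 were in the tables, EPCAM and the keratins among them, with summed fitted levels of 2170 CPM in FH-5xA, 2020 in FH-WT, 2300 in knockout and 2830 in parental cells. In the knockout 3 of these 6 fell in the authors' deposited table, CDH1 (E-cadherin) by 0.97 ± 0.08, EPCAM by 0.58 ± 0.07 and KRT18 by 0.46 ± 0.08, and against parental CDH1 was lower by 1.21 ± 0.09 in FH-5xA and 1.64 ± 0.09 in FH-WT. In the knockout these falls stood beside the rises below, while in the reconstituted lines CDH1 was no nearer to parental than in the knockout. The part of these falls in the results was not tested. The intestinal marker CDX2 was present, and VIL1, CDX1, LGR5 and CEACAM5 were absent. None of 9 blood and 3 plasmacytoid dendritic cell markers was in the tables (0 measured in each list). Of 8 fibroblast markers 2 were measured, ACTA2 and COL1A1, with summed levels of 10.3 CPM in FH-5xA, 7.40 in FH-WT, 7.71 in knockout and 3.69 in parental cells. Both were called higher in the knockout, ACTA2 at 1.41 ± 0.17 and COL1A1 at 0.59 ± 0.23 in the authors' deposited table, and their part in the results was not tested either. Of 6 endothelial markers 1, ESAM, was measured, at 2.78 CPM in FH-5xA, 2.69 in FH-WT, 2.48 in knockout and 2.57 in parental cells.

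The knockout cells had more RNA of most of these genes, and in the cells carrying either form of AGO2 many of them were lower again. In both reconstituted lines 13 members were still called above parental (38.2%, beside 15.2% of all genes), the 4 with the largest rises among them. With knockout set against parental, the authors' deposited table called 24 of the 34 members higher and 0 lower (70.6% higher), beside 23.2% of all genes called higher and 21.2% lower, or 44.4% in either direction. The members, and the lists further below, were chosen with earlier results of these data known. Such shares are therefore descriptions and not tests of the list. Among the members the median log2 fold change was 0.48, with a range of -0.10 to 2.34, against a median of -0.01 over all genes. With FH-WT against knockout, 15 members were called lower and 0 higher (44.1%), while 5.85% of all genes were called lower, 4.21% higher and 10.1% in either direction in the authors' deposited table; the members' median was -0.26. With FH-5xA against knockout the authors' deposited table also had 15 members lower and 0 higher, beside 6.24% of all genes lower, 5.04% higher and 11.3% in either direction, and the members' median was -0.30. Those comparisons share the knockout libraries with each other and with knockout against parental, so their values are set side by side and no agreement between them is counted as a result. The tables against parental share the parental libraries in the same way: FH-5xA had 15 members higher and 1 lower, beside 22.9% of all genes higher, 20.9% lower and 43.8% in either direction, in the authors' deposited tables. FH-WT had 15 higher and 0 lower, beside 18.3% of all genes higher, 16.1% lower and 34.4% in either direction. When the deposited scores were read against an F distribution with 1 and 8 degrees of freedom in place of the chi-square, the counts called were 21 in knockout against parental (without IFITM2, TRIM25 and SP110), 4 with FH-WT and 7 with FH-5xA against knockout, beside 32.5%, 0.571% and 0.610% of all genes in those comparisons. The 4 with FH-WT were IFIT2, IFIH1, TLR3 and PARP9, and the 7 with FH-5xA were IFIT2, IFIT3, RIGI, IFIH1, TLR3, PARP9 and DTX3L.

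**Figure D1:**
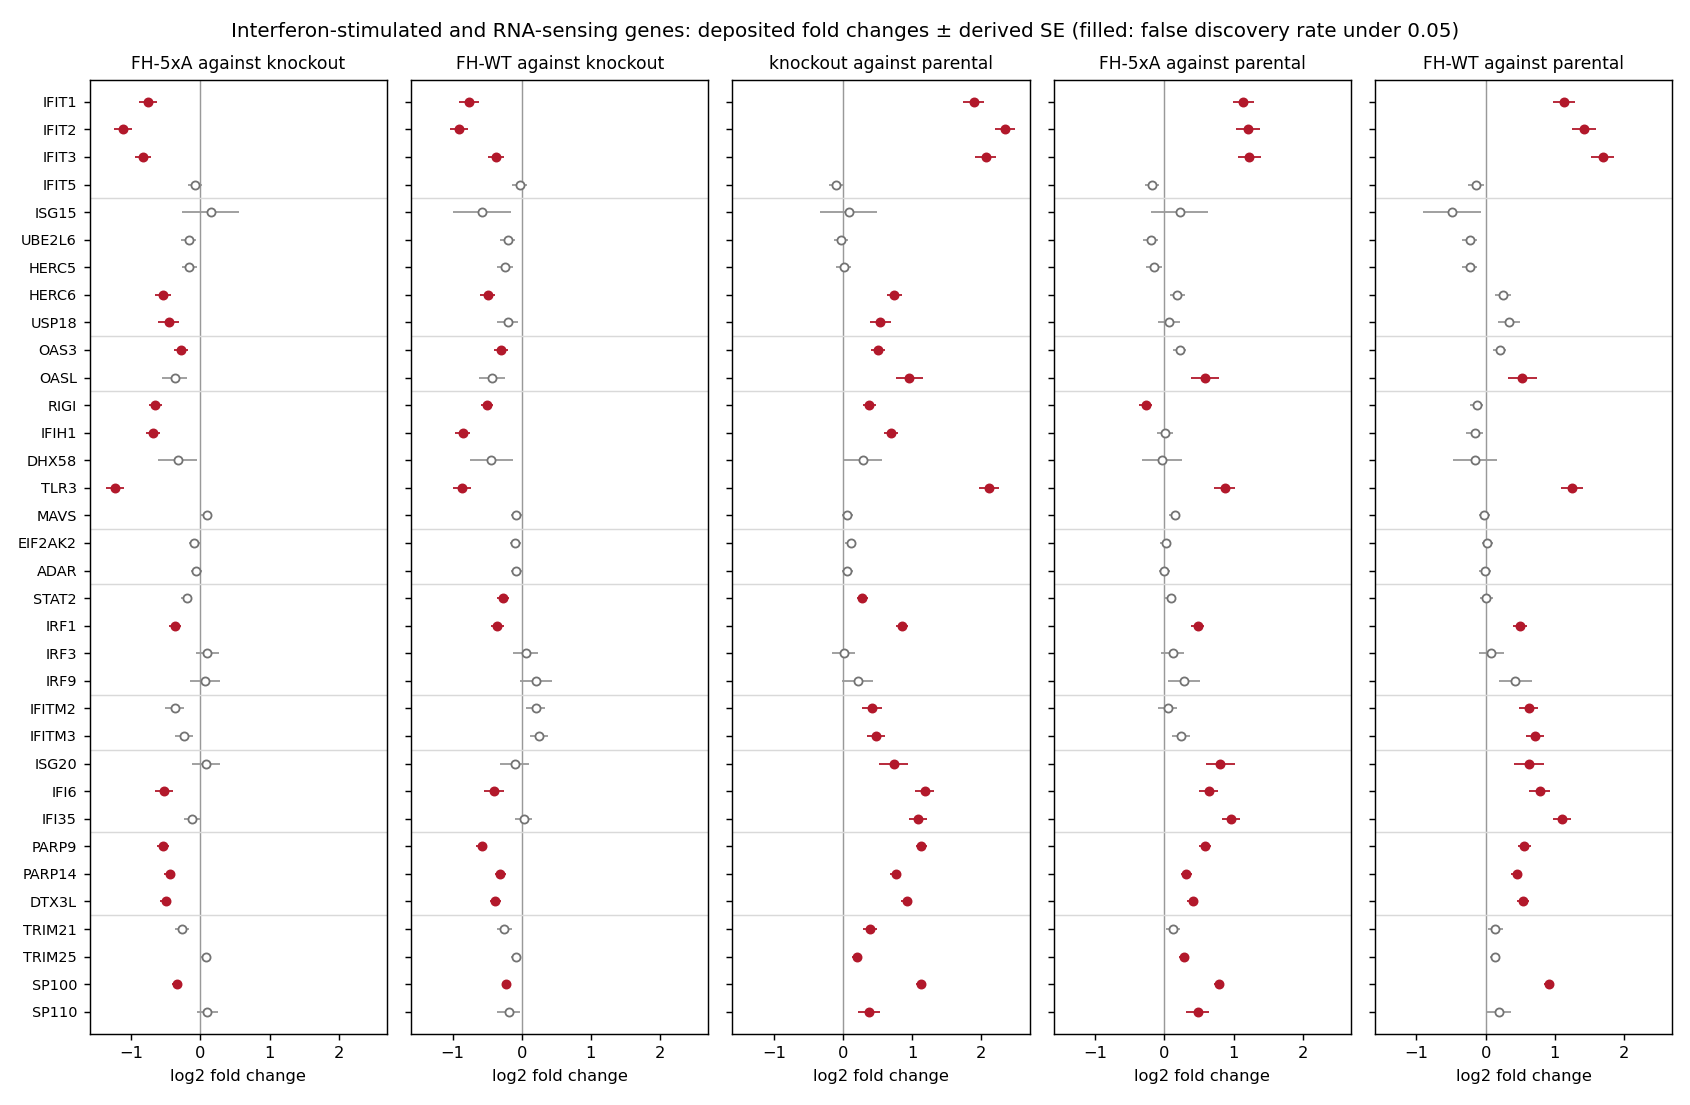
Log2 fold change of each of the 34 members (rows, grouped by role) in the 5 deposited comparisons (panels), with bars of 1 derived SE; filled points have an FDR under 0.05. In the knockout panel 24 points are filled, all right of 0, and in each panel against knockout 15 are filled, all left of 0.

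Of the 4 measured IFIT genes, 3 were among the 4 members with the largest rises in the knockout. IFIT proteins bind foreign RNA, IFIT1 at the cap, and keep it from being translated. IFIT1 (ENSG00000185745; chromosome 10, 89392546 to 89406486, GRCh38) had fitted levels of 8.65 CPM in FH-5xA, 8.63 in FH-WT, 14.6 in knockout and 3.93 in parental cells. It was thus highest in the knockout and lowest in the parental line, with both reconstituted lines between. The log2 fold change of IFIT1 in the authors' deposited table was 1.89 ± 0.15 (SE, n = 3 libraries per group here and below) in knockout against parental (FDR 1.3e-36), a 3.71-fold rise. IFIT2 (ENSG00000119922) stood at 3.91 CPM in FH-5xA, 4.52 in FH-WT, 8.52 in knockout and 1.69 in parental cells. Its knockout value of 2.34 ± 0.14 in the authors' deposited table, 5.05-fold, placed it at rank 28 of 15074 genes for the size of the rise. IFIT3 (ENSG00000119917), which stabilises IFIT1, stood at 3.11 CPM in FH-5xA, 4.25 in FH-WT, 5.50 in knockout and 1.32 in parental cells, and rose by 2.06 ± 0.15 (FDR 5.4e-42) in the authors' deposited table. These 3 genes were all called higher, and IFIT5 (ENSG00000152778), which lies next to them, was not. IFIT5 was at 52.3 CPM in FH-5xA, 54.0 in FH-WT, 55.3 in knockout and 59.3 in parental cells, and the authors' deposited table gave -0.10 ± 0.10 for knockout against parental (FDR 0.447), a 95% interval of -0.30 to 0.10.

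With AGO2 restored, IFIT1 fell by 0.75 ± 0.13 in FH-5xA and by 0.76 ± 0.14 in FH-WT against knockout (FDR 2.8e-06 and 8.1e-06, the authors' deposited tables). IFIT2 fell by 1.12 ± 0.13 in FH-5xA and by 0.91 ± 0.13 in FH-WT in the authors' deposited tables, which is rank 21 and rank 56 among all falls. For IFIT3 the falls were 0.83 ± 0.12 in FH-5xA and 0.37 ± 0.12 in FH-WT (FDR 1.0e-08 and 0.0348, the authors' deposited tables). None of the 3 was back at the parental level. Against parental cells IFIT1 remained higher by 1.14 ± 0.15 in FH-5xA and 1.13 ± 0.16 in FH-WT, IFIT2 by 1.21 ± 0.17 in FH-5xA and 1.42 ± 0.17 in FH-WT, and IFIT3 by 1.23 ± 0.17 in FH-5xA and 1.69 ± 0.17 in FH-WT, all called in the authors' deposited tables. The other member of the family, IFIT5, was not called in any of the 5 tables.

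**Figure D2:**
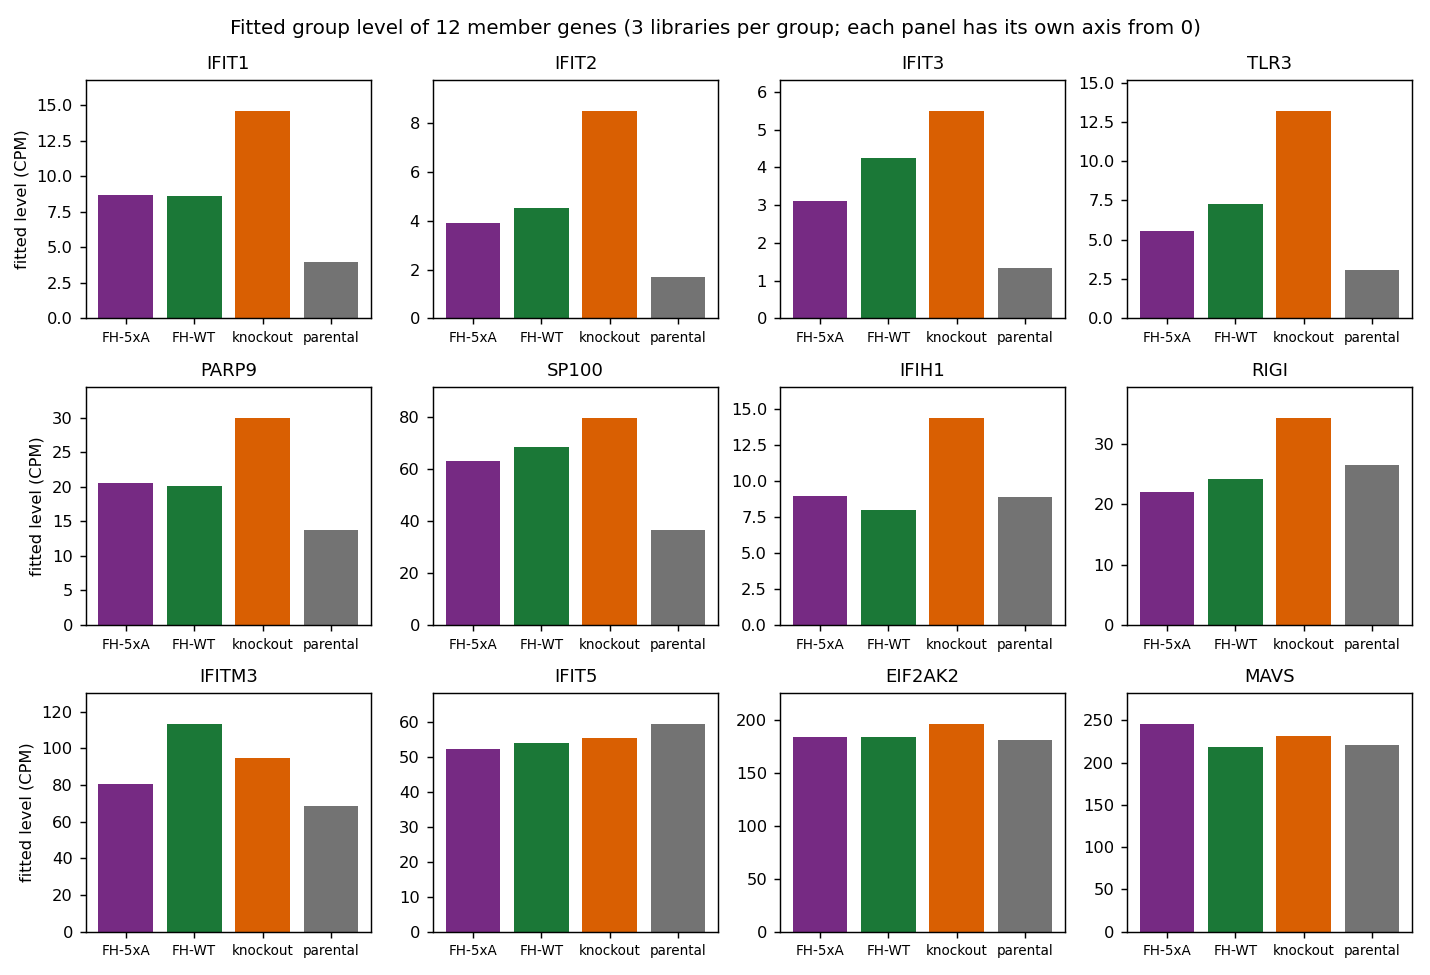
Fitted level in CPM (bars, from 0, each panel with its own axis) of 12 members in FH-5xA, FH-WT, knockout and parental cells, derived from the deposited mean expression and fold changes; 3 libraries per group, with no spread per library. IFIT1 to IFIT3, TLR3, PARP9 and SP100 are highest in the knockout and lowest in the parental line, while IFIT5, EIF2AK2 and MAVS differ little between the 4 groups.

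The IFIT genes sit within 137308 bases on chromosome 10 (89283694 to 89421001), and IFIT1, IFIT2 and IFIT3 lie inside the annotated span of LIPA, a lysosomal lipase gene read from the opposite strand. LIPA was at 0.28 ± 0.08 in knockout against parental in the authors' deposited table, and the next measured protein-coding gene beyond IFIT5, PANK1, at 0.16 ± 0.08. On the other side FAS, a death receptor gene, was at 1.24 ± 0.10 in the authors' deposited table. Against knockout LIPA was at -0.54 with FH-5xA and -0.51 with FH-WT, falls beside those of IFIT1, IFIT2 and IFIT3 above. Against parental LIPA was at -0.26 in FH-5xA and -0.23 in FH-WT, where those 3 genes were higher. The part of LIPA reads in the values of the IFIT genes was not tested. In all, 9 members overlap another measured gene on the opposite strand, and no source used here states the strand setting of the counting, so reads in the overlaps cannot be assigned with certainty. These are IFIT1, IFIT2, IFIT3, EIF2AK2, IRF1, IRF3, PARP9, DTX3L and TRIM25, with overlaps of 35 bases for EIF2AK2 to 33181 bases for TRIM25.

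Promoters of the members were also searched for the ISRE. The members were chosen as interferon-stimulated genes, many of which hold this element, so a high share of matches among them is not an independent result. RefSeq promoters (GRCh38.p14, 250 bases before to 50 after the gene start) were available for 35 of the 43 members, and each was searched on both strands for the ISRE core, GAAA and GAAA with any 2 bases between them, which reads TTTC and TTTC on the other strand. Of these 35, 20 held at least 1 match (57.1%), against 3.65% of all 27305 promoters in the table and 2.51% of the 10183 promoters of measured genes. The shorter element TTCNNNGAA, the GAS site of interferon-responsive promoters, is the same on both strands; 9 of the 35 held it (25.7%), against 7.88% of all promoters. Of the 28 of them with deposited values, 5 held it (17.9%), against 6.15% of the 10183 promoters of measured genes. Among the 7 absent members 4 held it (57.1%). GAS and ISRE matches overlapped in 3 promoters, those of IFITM1, IFI27 and BST2, none of which was in the tables. Matches are letters in a window and not shown to be bound. The sequences below are ISRE windows of genes that rose and of neighbours that did not, 30 bases each, 5′ to 3′ on the strand of the gene, with the match in capitals.
IFIT1 (chr10:89392497-89392526, plus strand, match from 116 bases before the start): ctagctttagTTTCACTTTCccctttcggt
IFIT1 (chr10:89392510-89392539, plus strand, 103 bases before): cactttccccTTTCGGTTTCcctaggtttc
IFIT3 (chr10:89327865-89327894, plus strand, 122 bases before): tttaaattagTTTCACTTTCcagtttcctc
IFIT5 (chr10:89414513-89414542, plus strand, 45 bases before): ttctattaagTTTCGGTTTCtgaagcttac
TLR3 (chr4:186069142-186069171, plus strand, 4 bases before): caagctttacTTTCACTTTCgagagtgccg
IFI6 (chr1:27672288-27672317, minus strand, 115 bases before): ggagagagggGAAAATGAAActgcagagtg
DTX3L (chr3:122564322-122564351, plus strand, 6 bases before): ccagggaagcGAAACTGAAActttgcgccc
IFIH1 (chr2:162318686-162318715, minus strand, 21 bases before): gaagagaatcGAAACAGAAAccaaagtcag
HERC5 (chr4:88457035-88457064, plus strand, 74 bases before): aaacattatgTTTCGTTTTCcactggagct

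The match TTTCACTTTC occurs in the IFIT1, IFIT3 and TLR3 windows and, on the other strand, in the TRIM21 promoter. IFIT1, IFIT3 and TLR3 had the largest rises in the knockout apart from IFIT2, which had no entry in the promoter table. TRIM21, with the same letters, rose by 0.39 ± 0.10 in the authors' deposited table, rank 20 among the members. A link between these letters and the size of the rise was not tested. IFIT5, which was not called, held 3 matches, among them TTTCGGTTTC, the letters of the IFIT1 match nearer the start. The share of promoters with an ISRE match was 55% (11 of 20) for members called higher in the knockout and 50% (4 of 8) for members not called. PARP9 counted as having no match. Its promoter window (chromosome 3, 122564735 to 122565034) lies outside its annotated span (122527924 to 122564577), and that span holds the DTX3L match printed above.

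**Figure D3:**
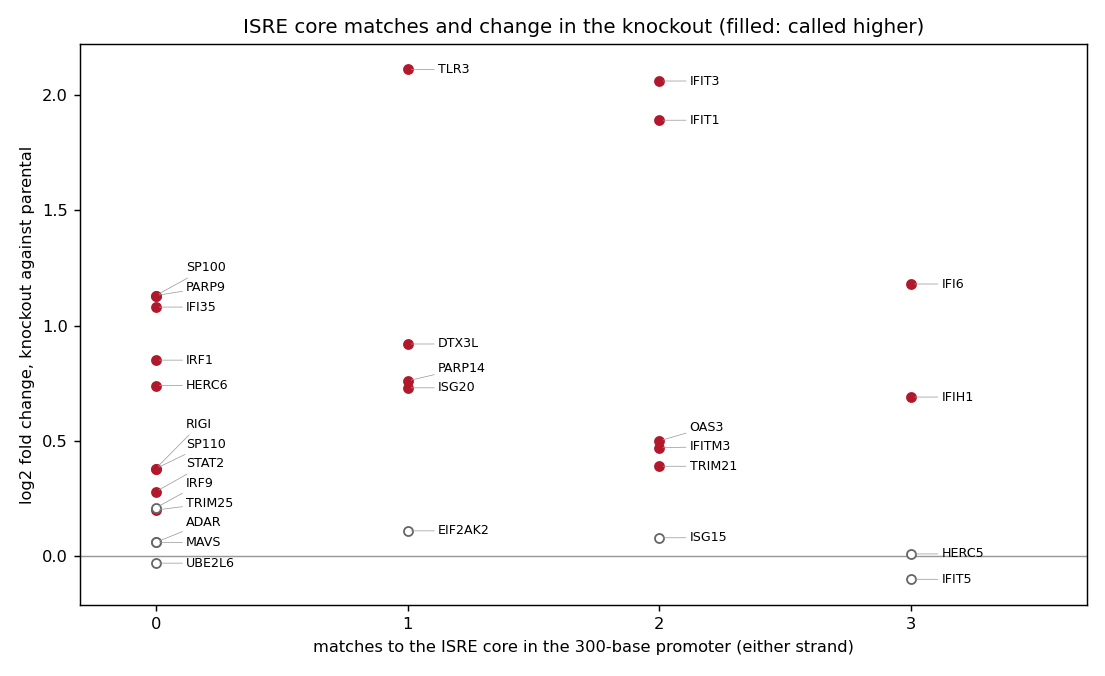
Number of ISRE core matches in the 300-base promoter (x axis) against the log2 fold change in knockout against parental (y axis) for the 28 members that have both; filled points were called higher. Members with 3 matches run from -0.10 for IFIT5 to 1.18 for IFI6, and members with 0 matches from -0.03 for UBE2L6 to 1.13 for PARP9 and SP100. The PARP9 window lies outside the annotated span of that gene.

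Of the 4 RNA sensors, TLR3, RIGI and IFIH1 rose in the knockout and fell with both forms of AGO2. TLR3 (ENSG00000164342; chromosome 4, 186069152 to 186088069), the endosomal receptor for double-stranded RNA, stood at 5.58 CPM in FH-5xA, 7.26 in FH-WT, 13.2 in knockout and 3.06 in parental cells. In knockout against parental TLR3 rose by 2.11 ± 0.14 (4.32-fold, FDR 5.6e-49, the authors' deposited table). Against knockout it fell by 1.24 ± 0.13 in FH-5xA (rank 12 of 15074 falls) and by 0.86 ± 0.13 in FH-WT (rank 74) in the authors' deposited tables, and it stayed above parental by 0.87 ± 0.15 in FH-5xA and 1.25 ± 0.16 in FH-WT.

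The cytosolic sensors RIGI and IFIH1 were not called above parental in either reconstituted line. RIGI (ENSG00000107201), the helicase RIG-I, was at 22.0 CPM in FH-5xA, 24.3 in FH-WT, 34.4 in knockout and 26.5 in parental cells. It rose by 0.38 ± 0.09 in the knockout and fell by 0.65 ± 0.09 with FH-5xA and by 0.50 ± 0.09 with FH-WT against knockout, each called in the authors' deposited tables. Against parental RIGI was lower in FH-5xA, at -0.27 ± 0.09 (FDR 0.00758), and at -0.13 ± 0.09 in FH-WT (FDR 0.303) in the authors' deposited tables. It was the single member called below parental in a reconstituted line. IFIH1 (ENSG00000115267), the helicase MDA5 that binds long double-stranded RNA, was at 8.97 CPM in FH-5xA, 7.97 in FH-WT, 14.4 in knockout and 8.90 in parental cells. Its rise of 0.69 ± 0.10 in the knockout (FDR 9.8e-11) stood beside falls of 0.68 ± 0.10 with FH-5xA and 0.85 ± 0.11 with FH-WT in the authors' deposited tables. Against parental IFIH1 was at 0.01 ± 0.11 in FH-5xA and -0.16 ± 0.12 in FH-WT, neither called in the authors' deposited tables. DHX58, the regulatory helicase LGP2, was barely expressed at 0.895 CPM in FH-5xA, 0.827 in FH-WT, 1.12 in knockout and 0.920 in parental cells, and was not called. MAVS, the adaptor downstream of RIG-I and MDA5, was at 0.06 ± 0.08 in the knockout (FDR 0.554, 95% interval -0.09 to 0.22, the authors' deposited table).

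EIF2AK2 and ADAR were not called, and of 4 transcription factors IRF1 and STAT2 rose in the knockout. EIF2AK2, the kinase PKR that halts translation, stood at 184 CPM in both FH-5xA and FH-WT, 196 in knockout and 181 in parental cells. ADAR, which edits adenosine to inosine in double-stranded RNA, stood at 443 CPM in FH-5xA, 439 in FH-WT, 463 in knockout and 443 in parental cells. Neither was called in any table, and their 95% intervals in knockout against parental were -0.03 to 0.26 and -0.09 to 0.22 from the authors' deposited table. Of the transcription factors, IRF1 (ENSG00000125347), an activator of interferon targets, was at 17.4 CPM in FH-5xA, 17.6 in FH-WT, 22.5 in knockout and 12.5 in parental cells. It rose by 0.85 ± 0.09 in the knockout and was still above parental by 0.48 ± 0.10 in FH-5xA and 0.50 ± 0.10 in FH-WT in the authors' deposited tables. IRF1-AS1, a noncoding transcript that overlaps IRF1 by 7094 bases on the opposite strand, was at 1.46 ± 0.22 in the authors' deposited table. STAT2, the subunit that gives the interferon factor its activation domain, rose by 0.28 ± 0.08 in the knockout (FDR 0.00186); in the authors' deposited tables it was lower with FH-WT by 0.27 ± 0.08 (FDR 0.0204) and at -0.20 ± 0.08 with FH-5xA (FDR 0.0991). IRF3, the factor activated by RNA sensing, was at 0.01 ± 0.17, and IRF9, the DNA-binding partner of STAT2, at 0.21 ± 0.22 in knockout against parental, neither called in the authors' deposited table. IRF9 was low in every group, from 1.22 CPM in parental to 1.64 in FH-WT cells.

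ISG15 is an interferon-induced, ubiquitin-like protein that becomes attached to other proteins, UBE2L6 is its conjugating enzyme, HERC5 and HERC6 are ligases of its family, and USP18 removes it. HERC6 (chromosome 4, 88378739 to 88443111) was at 10 CPM in FH-5xA, 10.4 in FH-WT, 14.6 in knockout and 8.77 in parental cells, and rose by 0.74 ± 0.11 in the knockout (FDR 8.2e-11, the authors' deposited table). USP18 was at 4.09 CPM in FH-5xA, 4.90 in FH-WT, 5.63 in knockout and 3.88 in parental cells, and rose by 0.54 ± 0.15 in the authors' deposited table (FDR 0.00118). Both were lower again in FH-5xA, by 0.54 ± 0.11 for HERC6 and 0.46 ± 0.15 for USP18; with FH-WT, HERC6 fell by 0.49 ± 0.11 and USP18 was at -0.20 ± 0.15 (FDR 0.459) in the authors' deposited tables. The neighbouring HERC5 was at 0.01 ± 0.11 and UBE2L6 at -0.03 ± 0.10 in the knockout, with intervals of -0.20 to 0.22 and -0.24 to 0.17 (the authors' deposited table). ISG15 had the widest error of the 34 members: 0.08 ± 0.41 in the knockout, so that its interval ran from -0.73 to 0.89 in the authors' deposited table and a change of the size seen in HERC6 could not be detected. Its fitted levels were 40.1 CPM in FH-5xA, 24.4 in FH-WT, 36.3 in knockout and 34.4 in parental cells.

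Of the OAS family, whose enzymes make the second messenger that activates RNase L, OAS3 and OASL were measured. OAS3 was at 45.8 CPM in FH-5xA, 45.1 in FH-WT, 55.4 in knockout and 39.2 in parental cells, and rose by 0.50 ± 0.10 in the knockout (FDR 3.1e-06, the authors' deposited table). It fell by 0.28 ± 0.10 with FH-5xA and 0.30 ± 0.10 with FH-WT, near the threshold (FDR 0.0467 and 0.0381 in the authors' deposited tables). OASL, a family member without that enzyme activity that aids RIG-I signalling, rose by 0.96 ± 0.19 in the knockout in the authors' deposited table. It stood at 2.76 CPM in FH-5xA, 2.66 in FH-WT, 3.57 in knockout and 1.84 in parental cells.

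PARP9 and DTX3L, whose proteins form a complex of an inactive ADP-ribosyltransferase and a ubiquitin ligase, overlap head to head by 340 bases on chromosome 3, and PARP14 follows within the same 202917 bases. All 3 rose in the knockout. PARP9 was at 20.6 CPM in FH-5xA, 20.1 in FH-WT, 30.0 in knockout and 13.7 in parental cells, and DTX3L at 32.1 CPM in FH-5xA, 35.0 in FH-WT, 45.6 in knockout and 24.1 in parental cells. The rises in the knockout were 1.13 ± 0.08 for PARP9, 0.92 ± 0.08 for DTX3L and 0.76 ± 0.08 for PARP14 (the authors' deposited table). Against knockout PARP9 fell by 0.54 ± 0.08 with FH-5xA and 0.58 ± 0.08 with FH-WT, DTX3L by 0.50 ± 0.08 and 0.38 ± 0.08, and PARP14 by 0.44 ± 0.08 and 0.31 ± 0.08 for the same lines, all called in the authors' deposited tables. They stayed above parental by 0.32 to 0.59 in FH-5xA and by 0.45 to 0.56 in FH-WT. The measured genes on either side were not called: KPNA1 was at 0.09 ± 0.07 and HSPBAP1 at -0.08 ± 0.12 in the authors' deposited table.

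SP100, an organiser of nuclear bodies that restrict DNA viruses, was called higher than parental in all 3 other lines. It was at 63.0 CPM in FH-5xA, 68.4 in FH-WT, 79.8 in knockout and 36.5 in parental cells. Its value in the authors' deposited table was 1.13 ± 0.07 in the knockout (FDR 7.1e-58), and against parental it was still 0.79 ± 0.07 in FH-5xA and 0.91 ± 0.07 in FH-WT. SP110, its relative within the same 376798 bases of chromosome 2, was at 0.38 ± 0.16 in the knockout (FDR 0.0458), and SP140L, a family gene between them, at 0.60 ± 0.11 in the authors' deposited table. The ubiquitin ligases TRIM21, an intracellular antibody receptor, and TRIM25, an activator of RIG-I, rose by 0.39 ± 0.10 and 0.20 ± 0.07 in the authors' deposited table. Neither was called lower with either form of AGO2.

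Of the remaining effectors, IFI6, a membrane protein of the interferon response, rose by 1.18 ± 0.14, IFI35 by 1.08 ± 0.13 and the exonuclease ISG20 by 0.73 ± 0.21 in knockout against parental (the authors' deposited table). IFI6 was at 6.59 CPM in FH-5xA, 7.24 in FH-WT, 9.52 in knockout and 4.21 in parental cells and was called lower with both forms of AGO2. IFI35 and ISG20 were not. IFI35 was at 10.3 CPM in FH-5xA, 11.4 in FH-WT, 11.1 in knockout and 5.26 in parental cells, so all 3 knockout-derived lines were 1.95-fold to 2.16-fold above parental in the authors' deposited tables. ISG20 was at 5.47 CPM in FH-5xA, 4.84 in FH-WT, 5.18 in knockout and 3.12 in parental cells.

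The IFITM proteins, which block the entry of enveloped viruses at membranes, were represented by IFITM2 and IFITM3. IFITM2 (chromosome 11, 307631 to 315272) was at 25.0 CPM in FH-5xA, 37.1 in FH-WT, 32.3 in knockout and 24.2 in parental cells. IFITM3 (chromosome 11, 319669 to 327537) was at 80.8 CPM in FH-5xA, 113 in FH-WT, 94.5 in knockout and 68.4 in parental cells. By these fitted levels both genes were highest in FH-WT cells. Rises in the knockout were 0.42 ± 0.14 for IFITM2 and 0.47 ± 0.13 for IFITM3 in the authors' deposited table. Against knockout neither was called: IFITM2 was at -0.37 ± 0.14 in FH-5xA and 0.20 ± 0.14 in FH-WT, and IFITM3 at -0.23 ± 0.13 in FH-5xA and 0.25 ± 0.13 in FH-WT in the authors' deposited tables. Against parental, IFITM2 was at 0.05 ± 0.14 in FH-5xA (FDR 0.819) and rose by 0.62 ± 0.14 in FH-WT (FDR 1.1e-04), and IFITM3 was at 0.24 ± 0.13 in FH-5xA (FDR 0.133) and rose by 0.72 ± 0.13 in FH-WT (FDR 1.1e-06) in the authors' deposited tables. The genes are close paralogs that lie side by side, and reads that fit both could be split between them in ways the counting notes do not state, so they are not 2 independent observations. The annotated span of IFITM2 also covers the promoter of IFITM1.

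No deposited table compares FH-5xA with FH-WT, so the difference was derived from the tables against knockout and parental. It was tested by a chi-square test of the squared difference over its derived variance, with Benjamini-Hochberg adjustment over 15072 genes. The derived difference, FH-5xA minus FH-WT, was -0.57 ± 0.14 for IFITM2 (95% interval -0.85 to -0.29, adjusted p = 0.00712) and -0.48 ± 0.13 for IFITM3 (-0.74 to -0.22, adjusted p = 0.0184). These were the 2 members called of 34 (5.88%), both lower in FH-5xA, a share near that of all genes, beside 2.13% of all genes called lower, 1.98% called higher and 4.11% in either direction. Next came IFIT3 at -0.45 ± 0.15 (interval -0.75 to -0.16, adjusted p = 0.0571) and TLR3 at -0.38 ± 0.15 (interval -0.67 to -0.09, adjusted p = 0.113), which missed the threshold. For 23 members the 95% interval lay within 0.5 on the log2 scale on either side of 0, among them IFIT1 (-0.28 to 0.29), IFIT5 (-0.25 to 0.16), RIGI (-0.33 to 0.04), IFIH1 (-0.06 to 0.40), EIF2AK2 (-0.15 to 0.15), ADAR (-0.14 to 0.17) and PARP9 (-0.14 to 0.21). For the other 11, ISG15 with -0.10 to 1.53 above all, the interval reached beyond 0.5. Before adjustment 6 members (17.6%) had a p under 0.05 in the derived chi-square test, and 19.3% of all genes did. Under the F distribution 0 genes of the whole table were called (0%), under a variance that ignores the shared knockout libraries 0 members were, and under the F distribution both IFITM genes had an adjusted p of 0.358.

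**Figure D4:**
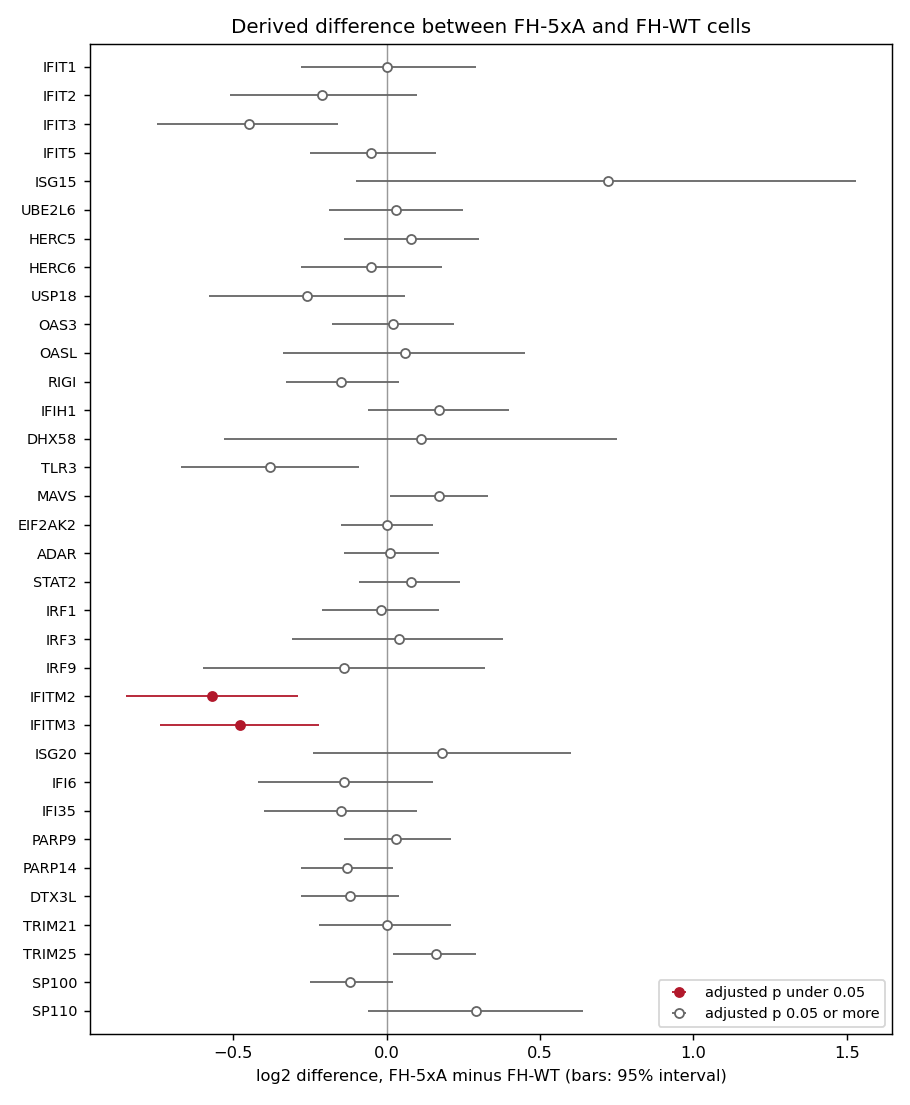
Derived log2 difference between FH-5xA and FH-WT cells for the 34 members, with bars of the 95% interval; filled points have an adjusted p under 0.05. The filled points are IFITM2 at -0.57 and IFITM3 at -0.48, and the widest interval is that of ISG15.

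The members of lower expression had the larger median rise. Split at the members' median mean expression of 4.35 log2 CPM, the 17 lower members had a median of 0.74 in the knockout with 14 called, and the 17 higher members a median of 0.28 with 10 called. Over all genes split at the same level, the medians were 0.02 and -0.04 and the shares called in either direction 38.6% and 49.8%. Higher than parental in both reconstituted lines were 13 members (38.2%) in the authors' deposited tables, beside 15.2% of all genes: IFIT1, IFIT2, IFIT3, OASL, TLR3, IRF1, ISG20, IFI6, IFI35, PARP9, PARP14, DTX3L and SP100. Both comparisons share the parental libraries, and both lines the knockout background, so this overlap is not counted as a separate result. Not called in any of the 5 tables were 10 members (29.4%), beside 38.7% of all genes: IFIT5, ISG15, UBE2L6, HERC5, DHX58, MAVS, EIF2AK2, ADAR, IRF3 and IRF9.

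Of genes for interferons, their receptors and signalling proteins, 1 interferon gene, 2 receptor genes and 10 signalling genes were called higher in the knockout, a comparison in which 23.2% of all genes were. The signalling list holds inhibitors as well as activators of these pathways, so its count gives no direction of signalling. Of 8 interferon genes looked for, IFNE, an epithelial type I interferon on chromosome 9, was the 1 present in the tables, at 1.27 CPM in FH-5xA, 1.26 in FH-WT, 2.94 in knockout and 1.27 in parental cells. In the authors' deposited tables it rose by 1.21 ± 0.26 in the knockout (FDR 1.4e-05) and fell by 1.22 ± 0.26 with FH-5xA and by 1.23 ± 0.28 with FH-WT. IFNE lies within MIR31HG, a noncoding gene on the same strand, over 1475 bases. MIR31HG was at 0.10 in the knockout, -0.01 with FH-5xA and -0.97 with FH-WT against knockout in the authors' deposited tables. Of 6 interferon receptor genes 5 were measured, and in knockout against parental 2 were called higher: IFNAR1 by 0.18 ± 0.07 and IFNLR1 by 0.24 ± 0.09 in the authors' deposited table. IFNAR2, IFNGR1 and IL10RB were at 0.19, 0.06 and 0.05 there and were not called.

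Of 19 measured signalling and adaptor genes, 10 were called higher and 0 lower in knockout against parental in the authors' deposited table (52.6% higher, beside 23.2% of all genes), with a median of 0.29. The 4 with the smallest p were STAT3, a cytokine-activated transcription factor, at 0.73 ± 0.07, the activator of HLA class I genes NLRC5 at 1.24 ± 0.13, and the transcription factors IRF5 at 0.81 ± 0.11 and IRF2 at 0.85 ± 0.13 (the authors' deposited table). Against knockout 1 gene of the list was higher and 1 lower with FH-5xA (10.5% called, beside 11.3% of all genes), and 1 was higher and 3 lower with FH-WT (21.1%, beside 10.1%), in the authors' deposited tables. Between the reconstituted lines 1 of the 19 was called by the derived chi-square test (5.26%, beside 4.11% of all genes). This was STAT3, with a derived FH-5xA minus FH-WT difference of 0.23 ± 0.07 (adjusted p = 0.0443), near the threshold.

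A list of 37 further interferon-stimulated genes, also chosen with earlier results of these data known, had 21 members in the tables. In knockout against parental 14 were higher (66.7%, beside 23.2% of all genes) and 1 lower, with a median of 0.42 in the authors' deposited table. The 1 lower gene was PLSCR1, named after its value was seen, at -0.49 ± 0.10. SAMD9, a restriction factor of poxviruses, was at 91.6 CPM in FH-5xA, 96.9 in FH-WT, 141 in knockout and 28.6 in parental cells and rose by 2.30 ± 0.10 (FDR 1.8e-116, the authors' deposited table). PARP12 rose by 1.52 ± 0.09, the RNA helicase ZNFX1 by 0.80 ± 0.07 and the guanylate-binding protein gene GBP3 by 1.61 ± 0.20 in the authors' deposited table. With FH-5xA 9 of the 21 were called lower and 0 higher against knockout (42.9% lower, beside 6.24% of all genes), and with FH-WT 5 lower and 0 higher (23.8%, beside 5.85%), in the authors' deposited tables. Between FH-5xA and FH-WT 2 of the 21 were called by the derived chi-square test (9.52%, beside 4.11% of all genes). Both were lower in FH-5xA, as were 2.13% of all genes: PARP12 at -0.27 ± 0.09, and NMI, named after its value was seen, at -0.47 ± 0.13 (adjusted p = 0.0491 and 0.0184). Under the F distribution 0 genes of the whole table were called. SAMD9, PARP12 and IRF5 lie on chromosome 7 beyond 70 Mb. ZC3HAV1 of the further list, named after its value was seen, lies there too and was called higher at 0.49 ± 0.07 in the authors' deposited table. The 454 measured genes of that stretch had a median of 0.49 in knockout against parental. The part of that shift in the values of these genes was not tested. None of the 34 members lies on chromosome 7 (0 members).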

How the data were processed

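The submitters' processing notes name TopHat2 2.0.12, Cufflinks 2.2.1, featureCounts 1.4.6, edgeR 3.8.6 and hg38/GRCh38; no source used here states the annotation, low-count filter, scaling or strand setting. For each gene, per the file headers, the 5 tables hold a log2 fold change and a mean log2 CPM, which was the same in all of them. Per the file headers they also give a score (LR), its p-value and the FDR. Recomputed from the deposited score by chi-square with 1 degree of freedom, each p-value differed by at most 7.36e-15. Library counts were not analysed here, so the edgeR quasi-likelihood fit that had been planned was replaced by the authors' own deposited tests.

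The SE is the absolute fold change over the square root of the score. Group levels in CPM were derived from the mean log2 CPM and the fold changes, with equal weight per group. For FH-5xA against FH-WT, group variances were solved by least squares from the 5 squared SEs (2 genes undefined). Symbols matched 14974 of 15074 identifiers; coordinates are from GENCODE 29. Tools were Python 3.11.15, pandas 2.3.3 and scipy 1.17.1. The members and lists were chosen with earlier results of these data known. All members were named, with the measured interferon ligands and receptors and the 4 genes of smallest p of each other list. Family protein identities could not be computed, since no protein table was used here. The result for 1 gene of the signalling list is not reported here.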

Additional observations from a re-analysis of the deposited data

Results flagged for a closer look

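The effects of FH-5xA and of FH-WT, each against the same knockout libraries, were compared by the derived chi-square test with Benjamini-Hochberg adjustment. Of the genes in the lists above 7 were called, in a comparison that called 4.11% of all genes. They were 2 of 34 members, 2 of 21 further interferon-stimulated genes, 1 of 19 signalling genes, 1 of 6 epithelial markers and 1 of 2 fibroblast markers. Under the F distribution 0 genes of the whole table were called. IFITM2 had a difference of -0.57 (adjusted p = 0.00712) and IFITM3 of -0.48 (adjusted p = 0.0184), both lower in FH-5xA. PARP12 was lower in FH-5xA by -0.27 (adjusted p = 0.0491), NMI by -0.47 (adjusted p = 0.0184), and STAT3 was higher by 0.23 (adjusted p = 0.0443). Of the marker genes COL1A1 was higher in FH-5xA by 0.79 (adjusted p = 0.0244) and CDH1 by 0.43 (adjusted p = 0.00197). RNA of the mitochondrial genome made up 1.99% of the fitted expression in FH-5xA, 3.91% in FH-WT, 1.29% in knockout and 0.870% in parental cells, and its part in these differences was not tested.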

How the results depend on the processing

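The values per comparison are group results, so the depth behind them is unknown and no library could be left out in turn. No paired analysis was possible because the tables carry no columns per replicate, and the planned replicate block and the settings without replicate 1, 2 or 3 were not run. With the deposited scores read against an F distribution with 1 and 8 degrees of freedom, 4 members were called in FH-WT against knockout, 7 in FH-5xA against knockout and 0 in FH-5xA against FH-WT, and over all genes the calls were 86, 92 and 0, against 1516, 1699 and 620. In FH-WT against parental the F distribution called 3195 genes, against 5180. A threshold of 0.01 called 688, 895 and 182 genes in FH-WT against knockout, FH-5xA against knockout and FH-5xA against FH-WT. In FH-WT against knockout it left 10 members called, where the main threshold called 15, and in FH-5xA against FH-WT it left 1. A variance ignoring the shared knockout libraries left 0 members in FH-5xA against FH-WT (13 genes over the whole table). Under the remaining settings for the counts of calls (centring on the median of all genes, at least 1 CPM, the mean of 4 squared standard errors, and a threshold of 0.01 or the F distribution elsewhere) the count of members stayed within 1.5 times, and the medians of the members moved by less than 1 median SE in all 6 comparisons under both settings tried. Of 878 values of single members under these alternatives, 834 kept their side of the threshold, 42 lost a call, 2 gained one (IFIT3 in FH-5xA against FH-WT, when centred and with the mean of 4 squared standard errors) and 0 changed sign with a call. A value without a call had none to lose, and the threshold of 0.01 and the F distribution could not add one. The 834 therefore include values whose side was fixed in advance. Of the lost calls 29 fell under the F distribution and 11 under the threshold of 0.01.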
